A study of Homo sapiens with 6 samples.

Results

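KLF10, EGR3, EGR1, FOS, FOSL2, JUN and JUNB are immediate early genes, and the RUNX1 and H3K27ac peaks around them were examined in ME-1 cells, an established human inv(16) leukemia line. This inversion fuses CBFB to MYH11, and the fusion protein, CBFβ-SMMHC, holds on to RUNX1, a DNA-binding regulator of blood formation. AI-10-49 is a small molecule that blocks the contact between the fusion protein and RUNX1. Cells received either DMSO alone or AI-10-49 at 1 µM for 6 h, and both groups were of the same line, so every library carries the inversion. Per group 1 library was made with an antibody to RUNX1 and 1 with an antibody to H3K27ac, the acetylated histone found at active promoters and enhancers. With 1 library per group no difference has a replicate check, no test between groups was possible and no p-value is given.

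The members are all peaks that overlap 1 of 7 windows in hg19 by at least 1 bp. These are chr8:103610001-103720000 (KLF10), chr8:22500001-22600000 (EGR3), chr5:137750001-137860000 (EGR1), chr14:75700001-75800000 (FOS), chr2:28570001-28690000 (FOSL2), chr1:59200001-59300000 (JUN) and chr19:12880001-12930000 (JUNB). Together they span 690 kb and hold 173 of the 145457 peaks in the 4 lists. The windows of KLF10, FOSL2 and EGR3 were selected on their RUNX1 values in AI-10-49, where their foremost sites by −log10 q rank 31, 83 and 2 of 10319, so these values are a description. No hg19 gene annotation was used here, and no peak was placed in a promoter, exon or intron. In the RefSeq gene order of GRCh38.p14, KLF10 lies between ODF1 and AZIN1, EGR3 between BIN3 and PEBP4, and EGR1 between REEP2 and ETF1. FOS lies between TMED10 and JDP2, FOSL2 between BABAM2 and PLB1, JUN between MYSM1 and FGGY, and JUNB between HOOK2 and PRDX2. Whether such a neighbour reaches into a window was not analysed here.

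Immediate early genes are switched on within minutes of a signal, without the need for new protein, and many of them encode transcription factors. FOS and FOSL2 (also called FRA2) pair with JUN or JUNB to form AP-1, a leucine zipper dimer that binds TGANTCA. EGR1 and EGR3 are zinc finger proteins that bind GC-rich sites, and KLF10 is a Krüppel-like zinc finger protein known as an early gene of TGFβ signalling. In myeloid cells EGR1 and JUN are known for their part in monocyte differentiation, and JUNB for restraining the growth of myeloid progenitors. Promoters of immediate early genes are known for CArG boxes, which bind serum response factor, and for cyclic AMP response elements (CRE), which bind CREB proteins.

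Promoter letters are shown to set out which of these motifs, and which RUNX letters, each member carries just before its start. The RefSeq promoter table (GRCh38.p14) matched 5 of the 7 genes, and the 250 bases before each start were searched on both strands. Motifs farther before a start were not looked for. RUNX letters (TGTGGT) were found in 11% of 34788 promoters, and in none of the 5 (EGR1, FOS, FOSL2, JUN, JUNB). AP-1 letters (TGANTCA, 6.59% of promoters) and the full CRE (TGACGTCA, 1.64%) were likewise in none of the 5. The short CRE letters TGACGT, searched after the full site had given no match and contained in it, were in 7.09% of promoters and in those of FOSL2, FOS and EGR1. Within these 250 bases EGR1 was the only one of the 5 with CArG boxes (1.17% of promoters) and EGR letters (GCGNGGGCG, 8.41%, here GCGCGGGCG). Capitals mark these matches, with ACGTCA for the short CRE on the other strand. The stretches run on the + strand, at chr2:28392777-28392812 for FOSL2, chr14:75278749-75278784 for FOS and chr5:138465266-138465432 for EGR1 (GRCh38.p14).
FOSL2: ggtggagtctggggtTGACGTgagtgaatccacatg
FOS: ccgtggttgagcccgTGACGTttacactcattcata
EGR1: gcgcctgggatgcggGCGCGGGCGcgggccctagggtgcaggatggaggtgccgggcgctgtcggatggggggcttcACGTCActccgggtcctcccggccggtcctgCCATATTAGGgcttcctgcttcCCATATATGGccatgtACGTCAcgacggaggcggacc
The short CRE begins 66 bases before the start in FOSL2 and 64 in FOS, and in EGR1 its copies span 136 to 131 and 67 to 62 bases before it. The CArG boxes of EGR1 span 105 to 96 and 83 to 74 bases before its start. A match in letters describes the sequence and shows no bound factor.

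RUNX1 sites were more numerous in the AI-10-49 list in each of the 7 windows. From DMSO to AI-10-49 they numbered 0 and 2 at KLF10, 2 and 5 at EGR3, 0 and 3 at EGR1, 1 and 6 at FOS, 3 and 7 at FOSL2, 1 and 3 at JUN and 1 and 4 at JUNB. In all, 8 of 1701 DMSO sites and 30 of 10319 AI-10-49 sites lay in the windows. Of the 30, 23 (76.7%, exact Clopper-Pearson interval 57.7 to 90.1) overlapped no DMSO site, where 85.1% of the whole AI-10-49 list did not. Of the 8, 1 (12.5%, 0.316 to 52.7), at JUNB, overlapped no AI-10-49 site, against 8.82% of the whole DMSO list. Both intervals include the share of the whole list. Intervals on shares, here and below, treat peaks as independent, which neighbours in 1 window need not be, so they are no test. The larger number in AI-10-49 depended on list length at most of these genes. With that list kept to its 1701 highest −log10 q values, the windows held 12 of its sites. Only KLF10 and FOSL2 then held more than in DMSO. Both were selected on their RUNX1 values in AI-10-49, so this is a description.

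**Figure D1:**
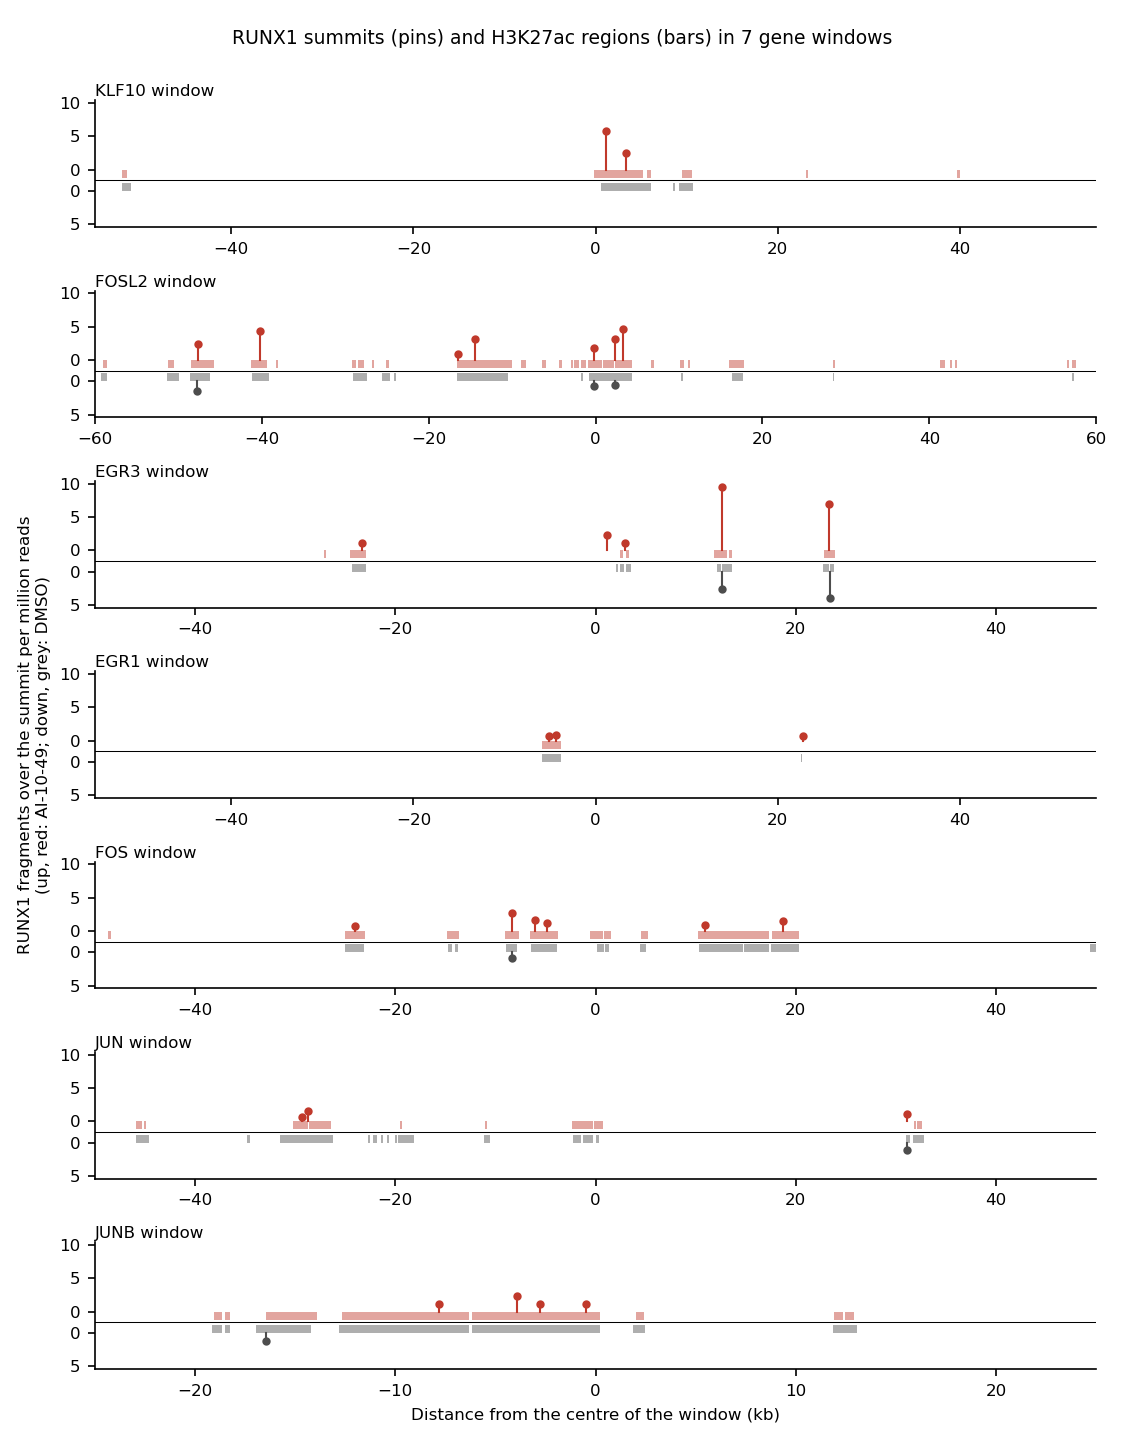
RUNX1 summits (pins, fragments over the summit per M reads) and H3K27ac regions (bars) along each gene window, by distance in kb from the window's centre, with AI-10-49 in red above and DMSO in grey below each line. The highest pins are the 2 EGR3 sites found in both lists, and the KLF10 window has 2 red pins and no grey one.

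Height at the shared sites was read as fragments over the summit per M (mega) reads of that library, recovered from the deposited values. The libraries held 33.8 M (DMSO) and 31.5 M (AI-10-49) RUNX1 reads and 35.7 M and 37.0 M H3K27ac reads. Intervals on these values are exact Poisson intervals at 95% (binomial for ratios) and cover counting error only. At the 7 sites in both lists the ratio of AI-10-49 to DMSO had a median of 2.63 and ran from 0.959 to 5.58, beside a median of 2.1 over all 1551 such sites. Above 1.5-fold were 6 of the 7, against 76.0% of all pairs. Below the inverse (0.667) were 0 of 7, a share of up to 41.0% by the exact interval, against 0.451%. Most of the 7 lay at FOSL2 (3) and EGR3 (2), windows selected on RUNX1 values in AI-10-49, so these comparisons are a description. The others, at FOS and JUN, had ratios of 3.33 and 0.959. Fragments in the AI-10-49 library were 1.13 times as long, which by itself raises counts over a summit, and divided by this factor the median was 2.32. The FOSL2 site chr2:28582182-28582414 then came to 1.43, so that it was no longer above 1.5-fold. Summits at these sites lay a median of 19 bp apart.

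Density of RUNX1 sites varied among the genes. Per 100 kb, AI-10-49 gave 8 at JUNB, whose window is the shortest, 6 at FOS, 5.83 at FOSL2, 5 at EGR3, 3 at JUN, 2.73 at EGR1 and 1.82 at KLF10. Of 12464 bins of 100 kb with at least 1 DMSO H3K27ac region, 54.2% held no AI-10-49 site and the 95th percentile was 3. JUNB, FOS, FOSL2 and EGR3 lay above that level, while KLF10, with a site among the tallest of the 30, lay below it. KLF10, FOSL2 and EGR3 were selected on RUNX1 values in AI-10-49, so this is a description. The windows span 50 to 120 kb and were placed around genes, unlike the bins, so their densities depend on window extent. Widened by 50 kb at each end, they held 5 AI-10-49 sites at JUNB, 7 at FOS, 7 at FOSL2 and 6 at EGR3, which is a lower density at each. The bins held a median of 4 DMSO H3K27ac regions. Per 100 kb JUNB had 14, FOS 12, FOSL2 11.7, EGR3 8 and KLF10 3.64, and the part of this in RUNX1 density was not tested. Nearest to the windows from outside were AI-10-49 sites 18.8 kb (EGR1) to 154 kb (FOSL2) from their edges, with 66 and 34 summit fragments. The outermost AI-10-49 sites inside lay 12.3 kb (FOSL2) to 51.6 kb (KLF10) from an edge.

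**Figure D2:**
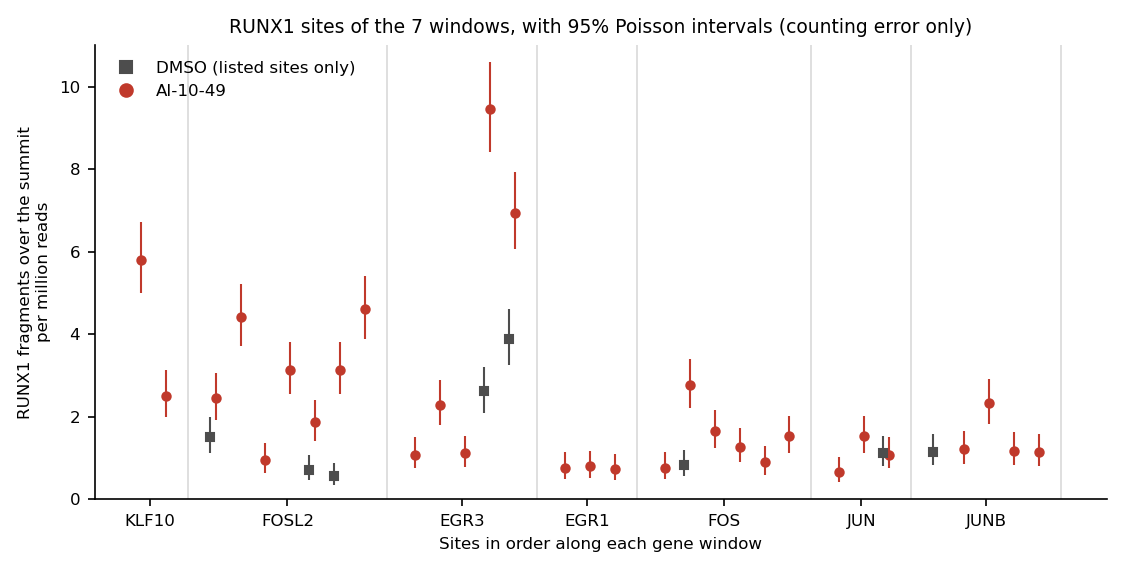
RUNX1 fragments over the summit per M reads at each listed site of the 7 windows, in order along each window, with 95% Poisson intervals (DMSO squares in grey, AI-10-49 circles in red). DMSO levels reach 3.88 at most, and 1 JUN site has nearly the same level in both conditions.

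KLF10 had no RUNX1 site in DMSO and a tall one in AI-10-49. That site, chr8:103665814-103667049, had 183 fragments over its summit or 5.81 per M reads (5 to 6.71), at a fold enrichment of 32.4 by the authors' measure. A lower one followed at chr8:103667720-103668632, with 79 fragments or 2.51 per M (1.98 to 3.12). Both lay in a single H3K27ac region that was present in both conditions, chr8:103665557-103671103 in DMSO. DMSO sites came no nearer than 150 kb. A DMSO site at the first position would have been listed from about 16 fragments (0.474 per M) at the background of the AI-10-49 list, or 24 (0.711) at that background doubled. The AI-10-49 level was above either.

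Acetylation at KLF10 was lower in AI-10-49 by fragments in all 3 shared regions, and higher by fold enrichment in 2 of them. By fragments, 16963 of all 47607 shared regions had a ratio above 1. The wide region had 9.39 H3K27ac fragments per M in DMSO, the highest of all regions in the 7 windows, and 7.22 with AI-10-49, for a ratio of 0.769 (0.652 to 0.906). By the authors' fold enrichment the ratio was 1.32, with a local background of 7.45 times the genome average in DMSO and 3.73 times in AI-10-49. Its neighbour chr8:103674185-103675705 had 3.61 and 2.68 per M, a ratio of 0.741, and by fold enrichment 1.21. The third shared region, chr8:103612949-103613951, was lower on both scales, with a ratio of 0.576 (0.365 to 0.895) by fragments and 0.583 by fold enrichment. Of the regions in 1 list only, 1 in DMSO and 2 in AI-10-49, each was weak, at 0.644 to 0.676 per M. The covered sequence was 8.32 kb and 8.13 kb.

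EGR3 held the tallest RUNX1 sites of the set, and both were already present in DMSO. At chr8:22562393-22562805 the level was 2.61 per M (2.09 to 3.21) in DMSO and 9.45 (8.41 to 10.6) with AI-10-49, which is 3.63 times as high (2.85 to 4.66). At chr8:22573145-22573655 it was 3.88 (3.24 to 4.60) and 6.95 (6.06 to 7.93), or 1.79 times (1.44 to 2.24). The order of the 2 sites thus differed: the second was the higher in DMSO, where it ranked 13 of 1701, and the first in AI-10-49, where it ranked 2 of 10319. A further 3 sites were in AI-10-49 only, the highest of them chr8:22550949-22551353 at 2.28 per M (1.79 to 2.88). It was the only one of the 30 that overlapped no H3K27ac region of either list. The other 2, at chr8:22526494-22526818 and chr8:22552829-22553071, had 1.08 and 1.11 per M.

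Both tall EGR3 sites had their summits in a short gap between acetylated regions of the DMSO list. A gap of 108 bp between 2 H3K27ac regions held the first summit, and a gap of 92 bp held the second. In AI-10-49 a single region ran across each gap, chr8:22561793-22563130 and chr8:22572813-22573867. The 4 flanking DMSO regions had ratios of 0.731 to 0.979 by fragments. By fold enrichment those around the first summit were at 1.24 and 1.36 and those around the second at 0.870 and 0.932. Each pair of DMSO regions is compared with 1 AI-10-49 summit, up to 491 bp from the DMSO summit. The region at chr8:22525700-22527129 was the most acetylated of the window, at 6.44 per M in DMSO and 6.41 with AI-10-49, for a ratio of 0.994 (0.826 to 1.2). Its fold enrichment was 2.37 times as high in AI-10-49, with a background of 6.21 and 2.08 times the genome average.

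EGR1, a zinc finger factor induced by growth and differentiation signals, had no RUNX1 site above 0.793 fragments per M reads, the lowest maximum of the 7 windows in AI-10-49. Its 3 AI-10-49 sites, chr5:137799746-137799955, chr5:137800650-137800854 and chr5:137827701-137827876, had 0.761, 0.793 and 0.730 fragments per M, or 23 to 25 fragments each. DMSO had none within 111 kb of them. At these levels a DMSO site of equal height could have gone unlisted: the lower bound of 1 of the 3 passed the level needed at the same background, and of 0 of 3 at a doubled one. Acetylation was also sparse, with 2 regions in DMSO and 1 in AI-10-49. The main region, chr5:137799085-137801172, had 5.10 and 3.79 per M, a ratio of 0.742 (0.591 to 0.930), while by fold enrichment it was 1.34. Its interval in either list held the first 2 RUNX1 sites. The weak DMSO-only region chr5:137827529-137827720, with 17 fragments, overlapped the third.

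FOS, which needs a JUN protein as its partner to bind DNA, had 5 RUNX1 sites in AI-10-49 only and 1 in both lists. Of the whole AI-10-49 list 85.1% of sites overlapped no DMSO site. The shared site, chr14:75741613-75741819, had 0.829 per M (0.551 to 1.2) in DMSO and 2.76 (2.21 to 3.40) with AI-10-49, 3.33 times as high (2.15 to 5.30). The next were chr14:75743788-75744165 at 1.65 per M and chr14:75768563-75768843 at 1.52, both in AI-10-49 only. The remaining 3 had 0.761 to 1.27 per M. Each of the 6 overlapped an H3K27ac region of both lists.

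FOS was the 1 window of the 7 whose median H3K27ac ratio by fragments was above 1, and it was below 1 when divided by the ratio of fragment lengths. Its 12 regions in both lists had a median ratio of 1.06, or 0.974 so divided, and 6 of them were above 1. Over all shared regions 16963 of 47607 were above 1. The region around the shared RUNX1 site, chr14:75741060-75742206, had 1.48 per M in DMSO and 2.11 with AI-10-49, for a ratio of 1.42 (0.989 to 2.05). Next to it chr14:75743533-75746145, which held 2 of the RUNX1 sites in AI-10-49 only, had 5.02 and 5.92, a ratio of 1.18 (0.965 to 1.45). Both intervals include 1. The regions with the highest −log10 q in DMSO lay farther out and were lower in AI-10-49 by fragments. At chr14:75725030-75726852 the levels were 5.27 and 3.89 (0.739, 0.591 to 0.923), and at chr14:75799408-75801906, which reaches past the window's edge, 6.67 and 4.97 (0.746, 0.612 to 0.908). By fold enrichment these last ratios were 0.602 and 1.04. A single region, chr14:75701371-75701600 with 19 fragments, was in AI-10-49 only, and none was in DMSO only.

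FOSL2, a FOS relative, had the most RUNX1 sites, 7 in AI-10-49, and its tallest was absent from the DMSO list. That site, chr2:28632885-28633626, had 145 fragments or 4.60 per M (3.88 to 5.41) and a fold enrichment of 33.3. It lay 437 bp from a weak DMSO site, chr2:28632269-28632448, where DMSO had 0.562 (0.339 to 0.878) and AI-10-49 3.14 per M (2.55 to 3.82). This ratio of 5.58 (3.39 to 9.66) was the largest of the 7 shared sites, and by fold enrichment it was 2.69. The other shared sites, chr2:28629704-28629852 and chr2:28582182-28582414, had ratios of 2.63 (1.61 to 4.43; 0.711 and 1.87 per M) and 1.62 (1.12 to 2.35; 1.51 and 2.44 per M). All 3 shared FOSL2 sites were thus higher in AI-10-49, as were 1455 of all 1551 shared sites. This window was selected on RUNX1 values in AI-10-49, so this is a description. Also in AI-10-49 only were chr2:28589391-28590121, at 4.41 per M, chr2:28615131-28615789 at 3.14 and a weak one at 0.952.

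The FOSL2 window was listed with 14 H3K27ac regions in DMSO and 29 in AI-10-49. Of the 29, 13 were in AI-10-49 only, where 21.0% of the whole list were, and the other 6 windows together had 4. In the 9.72 kb between the widest DMSO regions, chr2:28613356-28619470 and chr2:28629192-28634416, lay 5 of the 13. These 5 were weak, at 0.514 to 0.784 per M, and the tallest of the 13, chr2:28671261-28671826, had 1.43. With a −log10 q of at least 10 the window held 9 regions in DMSO and 10 in AI-10-49. The regions with the highest −log10 q were lower in AI-10-49, with 7.34 and 5.81 per M at chr2:28613356-28619470 (0.792, 0.658 to 0.952) and 5.41 and 2.92 at chr2:28588819-28590889 (0.540, 0.423 to 0.687). Both overlapped RUNX1 sites that were in AI-10-49 only. The single DMSO-only region, chr2:28605823-28606079, had 0.672 per M. In AI-10-49 the RUNX1 summit of the site with the ratio of 5.58 lay in a gap of 51 bp between H3K27ac regions, where the DMSO list had 1 unbroken region.

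JUN, the AP-1 subunit that can also pair with itself, had the 1 shared RUNX1 site that was not higher in AI-10-49. At chr1:59280967-59281170 DMSO had 1.12 per M (0.796 to 1.54) and AI-10-49 1.08 (0.747 to 1.51), a ratio of 0.959 (0.586 to 1.56), and by fold enrichment 1.2. Of all 1551 shared sites 5.42% had a lower ratio. The DMSO-only H3K27ac region chr1:59281033-59281359 held this summit, and in AI-10-49 the nearest acetylated region was 716 bp from it. The 2 sites in AI-10-49 only, chr1:59221134-59221463 and chr1:59220633-59220816, had 1.52 and 0.666 per M.

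The JUN window held both the lowest and the highest H3K27ac ratios of the set. H3K27ac covered 13.7 kb in DMSO and 8.88 kb in AI-10-49. In 1 list only were 8 of 16 DMSO regions and 0 of 10 AI-10-49 regions, against 29.0% and 21.0% of the whole lists. The 8 were weak, with 13 to 40 fragments, and 6 regions were left in each list with a −log10 q of at least 10. The region with the highest −log10 q, chr1:59219520-59223822, had 6.33 per M in DMSO and 2.78 with AI-10-49, for a ratio of 0.440 (0.345 to 0.558). The next, chr1:59281716-59282756, had 3.59 and 1.54, a ratio of 0.430 (0.309 to 0.592). These were the lowest ratios of the 51 shared regions and lay at percentiles 5.41 and 4.78 among all shared regions, with 0.466 and 0.425 by fold enrichment. The first region held both JUN sites that were in AI-10-49 only. In the middle, chr1:59250056-59250350 had 1.15 and 2.19, a ratio of 1.91 (1.29 to 2.85), and by fold enrichment 3.37. The higher ratio of 3.44 at chr1:59247802-59248510 compares summits 1065 bp apart, since the AI-10-49 region spans a second DMSO region, chr1:59248708-59249708, which had 2.72 and 2.89. No RUNX1 site of either list lay in these middle regions. The outermost shared region on the left, chr1:59204147-59205434, had 0.672 and 0.919, a ratio of 1.37 (0.787 to 2.41), and by fold enrichment 1.6.

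JUNB, the JUN relative that can take its place in AP-1, had 1 RUNX1 site in DMSO and 4 others in AI-10-49. The DMSO site, chr19:12888493-12888657, had 39 fragments or 1.15 per M (0.821 to 1.58), and the nearest AI-10-49 site lay 8.28 kb away. The AI-10-49 sites were chr19:12900669-12901258 at 2.32 per M (1.82 to 2.91) and chr19:12896933-12897338, chr19:12902049-12902411 and chr19:12904329-12904660 at 1.21, 1.17 and 1.14. All 4 lay in the 2 widest acetylated regions. These regions, chr19:12892219-12898663 and chr19:12898819-12905208, had ratios of 0.812 (0.683 to 0.966; 8.15 and 6.62 per M) and 0.734 (0.607 to 0.887; 7.26 and 5.33 per M). By fold enrichment they were 1.59 and 1.23. On either scale the ratio of the second region compares summits 2193 bp apart. Around the DMSO site, chr19:12888067-12890777 had 6.33 and 3.51 per M, a ratio of 0.555 (0.444 to 0.692) and by fold enrichment 0.790. Each of the 7 JUNB regions was in both lists and had a ratio under 1 by fragments, and 2 of them were above 1 by fold enrichment. Over all shared regions 16963 of 47607 had a ratio above 1 by fragments, and 29.0% of the whole DMSO list was in DMSO only.

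**Figure D3:**
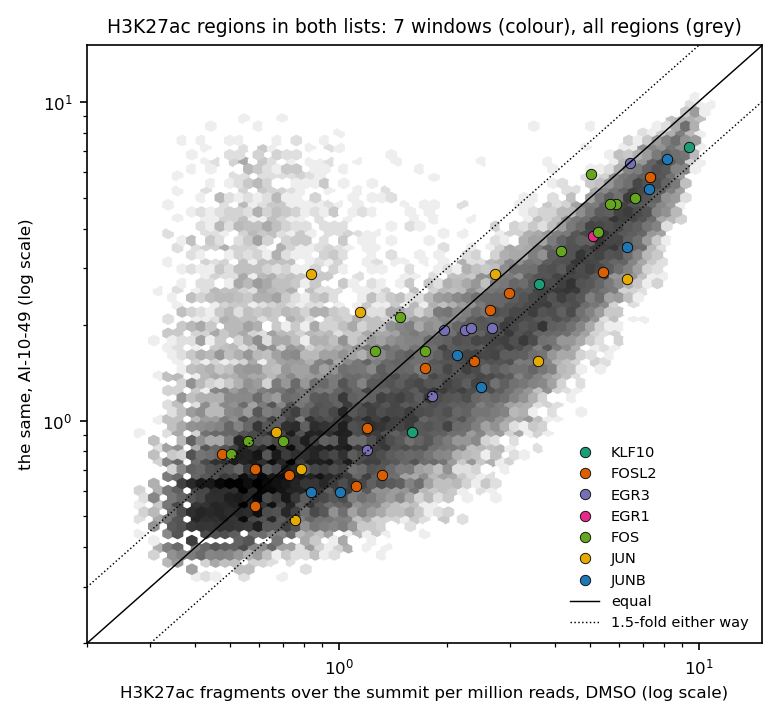
H3K27ac fragments over the summit per M reads in DMSO (horizontal) and AI-10-49 (vertical), both on log axes, for the 51 regions of the windows in both lists (colour by gene) over all such regions (grey, darker where denser). Most coloured points lie below the line of equality, and the 2 JUN points farthest below it have ratios of 0.440 and 0.430.

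Across the 7 windows acetylation covered about the same length in both conditions. H3K27ac regions numbered 63 in DMSO and 72 in AI-10-49 and covered 88.7 kb and 89.0 kb. In AI-10-49 only were 17 of 72 (23.6%, 14.4 to 35.1), against 21.0% of the whole list, and 13 of these 17 were at FOSL2. In DMSO only were 12 of 63 (19%, 10.2 to 30.9), against 29.0% of the whole list, and 8 of these 12 were at JUN. Both intervals include the share of the whole list, but they leave out this clustering in single windows and are likely too narrow.

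**Figure D4:**
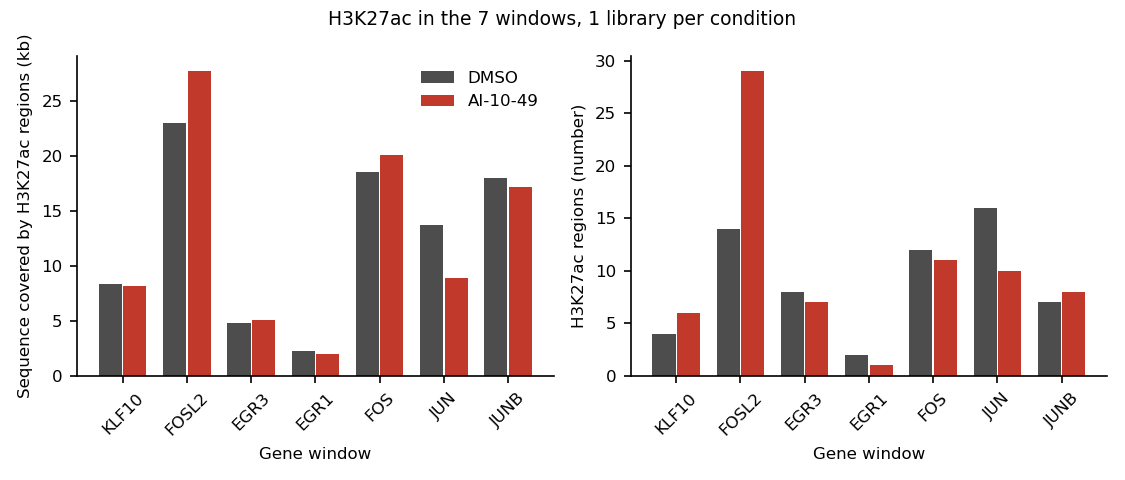
Sequence covered by H3K27ac regions in kb (left) and their number (right) in each gene window, with DMSO bars in grey and AI-10-49 bars in red, 1 library each. FOSL2 has 14 and 29 regions over 23.0 and 27.7 kb, and JUN 16 and 10 regions over 13.7 and 8.88 kb.

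Height within the 51 shared regions was lower in AI-10-49 by fragments. The median ratio was 0.812 (quartiles 0.690 and 0.987), beside 0.838 over all shared regions. Above 1 were 12 of the 51, and 16963 of 47607 over all. By the authors' fold enrichment the direction turned, with a median of 1.06 and 28 of 51 above 1, beside 0.933 over all. Under the inverse of 1.5-fold were 12 of the 51 (23.5%, 12.8 to 37.5), against 29.1% of all pairs, and above 1.5-fold 5 (9.80%, 3.26 to 21.4), against 12.8%. The interval lay below 1 at 19 regions and above 1 at 2, both of JUN. For the counts by interval and by fold enrichment, no count over all shared regions was taken. By gene, median ratios of fragments were 0.708 at JUNB, 0.741 at KLF10, 0.742 at EGR1 (1 region), 0.837 at EGR3, 0.840 at FOSL2, 0.980 at JUN and 1.06 at FOS. By fold enrichment JUNB (0.790) and FOSL2 (0.894) stayed below 1, and EGR3 (1.06), FOS (1.18), KLF10 (1.21), EGR1 (1.34) and JUN (1.46) were above it.

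RUNX1 sites of the windows lay mostly in chromatin that was acetylated in both conditions. Summits inside an H3K27ac region of the same condition were 6 of 8 in DMSO (75%, 34.9 to 96.8), against 69.4% of the whole list, and 24 of 30 in AI-10-49 (80.0%, 61.4 to 92.3), against 68.4%. Of the 23 sites in AI-10-49 only, 22 overlapped a region already listed in DMSO and 21 a region of both lists. For these overlaps no share over the whole list was taken, so the counts show no trait particular to the windows. Acetylated regions that were in AI-10-49 only held 0 AI-10-49 RUNX1 sites among 17, which allows a share of up to 17.6%, and those in DMSO only held 2 among 12, at EGR1 and JUN. In the whole lists these shares were 0.993% and 2.41%. Shared regions that held an AI-10-49 RUNX1 site had a median H3K27ac ratio of 0.811 (20 regions) and those without one 0.837 (31 regions), where all shared regions gave 0.705 and 0.889. By fold enrichment the order in the windows turned, with 1.12 and 1.04, where all shared regions gave 0.854 and 0.953. The regions of the windows with a site were also taller in DMSO, at a median of 5.06 fragments per M against 1.2, and the part of height in these ratios was not tested.

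Whether a DMSO site as tall as in AI-10-49 would have been listed was estimated for the sites in AI-10-49 only, after the values were seen. A lower DMSO site could have been present but unlisted at any of them, and how many were was not tested. The lowest DMSO site of the whole list had 11 fragments. For 20 of the 23, the lower bound of the AI-10-49 level, corrected for fragment length, was above the level at which a DMSO site would be listed at the same background. For 13 it was above it at 2 times the background: 3 each at FOSL2, FOS and JUNB, 2 at KLF10, 1 each at EGR3 and JUN and 0 at EGR1.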

How the data were processed

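RUNX1 and H3K27ac chromatin immunoprecipitation libraries of ME-1 cells were used as 4 deposited peak lists, and the 2 inputs only through them. Tools listed in the submitters' processing notes are MACS2 2.1.0, Bowtie2 2.1.0, Picard 1.96, SAMtools 1.3 and CASAVA 1.4, with the build hg19; the input behind each call was not given in the sources used here. The deposited fold enrichment is the authors' ratio of summit signal to local background. The deposited −log10 p and −log10 q are the authors' too, and the lowest −log10 q was 1.31 to 1.36. The authors' score was not used. Summit fragments were solved from fold enrichment and −log10 p (100% of peaks, to within 0.003), and reads from the lowest background, the shortest peak as fragment length (149 to 210 bp) and a genome of 2700000000 bp, the assumed MACS2 preset. On simulated data 100% of fragment numbers were exact (1500 peaks per list), and 0 of 1701 overlap calls differed from bedtools. A DMSO peak was paired with the overlapping AI-10-49 peak that had most fragments. Members and lists were chosen with earlier results of these data known. Named in each window were all RUNX1 sites up to 5, otherwise the 3 highest of AI-10-49 by −log10 q and up to 3 of DMSO, the 2 highest H3K27ac regions of DMSO and up to 2 of each list only. Other peaks named were chosen after their values were seen. Alternatives for threshold, list length, window extent, overlap, scale and pairing were tried. Python 3.11.15, numpy 2.4.6, pandas 2.3.3, scipy 1.17.1 and matplotlib 3.10.9 were used.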

Additional observations from a re-analysis of the deposited data

How the results depend on the processing

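No paired analysis was possible because each antibody and condition had 1 library. Of the alternative values of the main results 28 stayed close and 12 moved. Of those of single windows or regions 263 stayed close, 48 moved and 3 turned in direction. Except where given, the cause was not tested. RUNX1 sites in AI-10-49 fell from 30 to 12 with equal list lengths, which drop most of that list by construction. More sites in AI-10-49 were found in 7 windows under each other choice of threshold or extent but a −log10 q of at least 10, which left EGR1 equal. H3K27ac regions numbered 41 (DMSO) and 37 (AI-10-49) with a −log10 q of at least 10, and 105 and 117 in windows widened by 50 kb at each end. Regions in DMSO only came to 46.0% with 50% of both intervals required, 33.3% with summits within 250 bp and 9.52% within 1 kb, and regions in AI-10-49 only to 54.2% and 43.1% under the first 2 rules. All 8 DMSO RUNX1 sites (100%) counted as inside H3K27ac by any overlap. By fold enrichment the median H3K27ac ratio was 1.06. The same scale turned 3 regions, with ratios of 1.12 (chr2:28604399, FOSL2, 0.513 by fragments), 0.932 (chr2:28687112, FOSL2, 1.65) and 1.06 (chr8:22553071, EGR3, 0.653). Sites under about 1 fragment per M reads are near the level of listing, so their absence from a list says little.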
